A study of Oncorhynchus mykiss with 72 samples.

Results

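The comparison described here is the first day of heat in the desert strain of redband trout (Oncorhynchus mykiss), Little Jacks Creek, in gill RNA: 3 libraries of fish at 28 °C against 3 libraries of fish at 15 °C, the control temperature. These 6 libraries were taken by strain, temperature and day from the 72 of the study. The study also sampled the montane strain (Keithly) and the F1 cross of both strains, and sampled all of them on days 1, 3, 7 and 28, which gives 24 groups of 3 libraries. Per the authors' library table, each library pools 3 RNA samples from 1 rearing tank, so the p-values measure the spread between such pools. For the heat effect in single features that spread is taken from all 24 Little Jacks libraries, not from the 6 alone. How tanks were divided between temperatures, and the age of the fish, were not stated in the labels and files used here. No genetic modification or other agent is named for any group.

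The gill is the organ through which a trout exchanges oxygen and carbon dioxide, takes up and excretes ions and loses ammonia, and its thin epithelium is in direct contact with the water. In fish, as in other animals, acute heating activates heat shock transcription factors, which switch on genes of molecular chaperones, the proteins that hold and refold damaged proteins. Some chaperone transcripts, though not all, are known for low levels at rest and a steep, early rise in heat. Which features of the tables are chaperone genes was not settled here, since the identifiers hold no gene name and a table of gene symbols had a match for 0 of 24343. For the same reason the gill label was not checked against marker genes. In bulk gill, fewer cells of a type and less RNA per cell cannot be told apart.

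The values are the authors' normalised signal, a read count scaled to an effective library size. Recovered reads were 3.34, 7.63 and 7.48 M (M, mega) in the 28 °C libraries, in the order of replicates 1, 2 and 3, and 6.79, 6.12 and 6.03 M at 15 °C. Replicate 1 at 28 °C was thus the shallowest of the 6, and a count of 3 reads, below which no fold is read, was 1.44 units there (counting error only). In the authors' library table the 3 entries at 28 °C had 16.2%, 26.2% and 26.8% of their quality reads matched to the transcriptome, against 31.2%, 27.3% and 22.5% at 15 °C. Their matched reads were 4.57, 8.20 and 8.08 M at 28 °C and 7.42, 6.72 and 6.61 M at 15 °C. In both groups these rank as the recovered reads of replicates 1, 2 and 3 do. By that order the 16.2% would be that of replicate 1 at 28 °C, but no label ties an entry to a column of values. Replicate 1 at 28 °C also stood apart from its group mates, as described below, so the counts, the lists and the named features are given with and without it.

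After 1 day at 28 °C, 1733 of 24343 features were higher and 2027 were lower than at 15 °C. These are 7.12% and 8.33% of the features tested, together 15.4%, by limma's two-sided test on log2(value + 0.5), at a p under 0.05 after Benjamini-Hochberg adjustment. Such features are named called features from here on. All 28 °C libraries lay above all 15 °C libraries in 3704 features (15.2%) and below them in 4106 (16.9%), and 1701 of the higher and 1926 of the lower called features were among these. The same test on all features gave 6919 at an unadjusted p under 0.05.

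Without replicate 1 at 28 °C the counts were 1883 higher (7.74%) and 2129 lower (8.75%). Of the features called higher with it, 1526 were also called higher without it, which is 88.1% of the first list and 81.0% of the second. For lower features 1538 were shared, 75.9% of the first list and 72.2% of the second, and 0 features turned direction. Both fits share the other 5 libraries. The count of lower features depended on each control library: without replicate 1, 2 or 3 at 15 °C it was 1306, 1262 or 1246. The main fit takes its estimate of spread from all 24 Little Jacks libraries, and their groups differed in spread. Over features with a mean of at least 5 units, the median SD of log2 values per group ran from 0.19 to 0.41. It was widest at 28 °C on day 1. The fit of the 6 libraries alone called 1095 higher and 612 lower.

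The balance of higher and lower features depends on the scaling, which here is that of the authors. Their values summed to 1.60, 1.46 and 1.51 M in the 28 °C libraries and to 0.826, 0.819 and 0.826 M at 15 °C. With every library rescaled to the same total, the median difference of all features moved from -0.04 to -0.85 on the log2 scale, and 594 features were called higher and 10439 lower. Under that scaling 5.38% of the called features were higher, against 46.1% under the authors' scaling. Median-of-ratios scaling called 1766 higher and 1905 lower (48.1% higher), with a median difference of -0.02. Directions below are those of the authors' scaling, in which the median feature is close to 0.

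Called higher features had a median log2 difference of 1.46, and called lower features one of -1.14. With values under the 3-read limit raised to it, the medians were 1.495 and -1.13, the largest rise was 11.87 and the largest fall was -3.98. Because the calls select on size, the medians describe the lists only. The 3-read limit of 1.44 units bounds a fall but not a rise: a 16-fold fall needs a level of 23.0 units at 15 °C, which 5525 features (22.7%) had.

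By fold, with values raised to the 3-read limit, 1349 called features were at least 2-fold higher and 1246 at least 2-fold lower. At 4-fold there were 528 higher and 95 lower, at 8-fold 200 and 6, and at 16-fold 90 and 0. Beyond that, 24 features were at least 64-fold higher, 13 at least 256-fold and 6 at least 1024-fold. The counts of both directions are comparable only among features with room to fall. Among the 5525 with room for a 16-fold fall, 14 were at least 16-fold higher and 0 lower. Room for an 8-fold fall was found in 9713, of which 66 were at least 8-fold higher and 6 lower, and room for a 4-fold fall in 14704, of which 257 were at least 4-fold higher and 95 lower.

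Without replicate 1 at 28 °C the 16-fold class held 105 higher and 0 lower features, and the 4-fold class 589 higher and 168 lower. Without replicate 3 at 28 °C, 4 features were at least 16-fold lower, and without replicate 2 at 15 °C, 2 were. Under rescaling to equal totals, 50 features were at least 16-fold higher and 10 at least 16-fold lower, and at 4-fold the counts were 241 and 1327. Among features with room to fall, leaving out replicate 1 at 28 °C gave 18 higher and 0 lower at 16-fold, 82 and 6 at 8-fold and 302 and 168 at 4-fold. Under equal totals 9503, 14475 and 19738 features had such room. Their counts were 15 and 10, 43 and 99, and 152 and 1327, so the balance at 8-fold and 4-fold turned under that scaling. Median-of-ratios scaling, read over all called features, gave 91 higher and 0 lower at 16-fold and 539 and 94 at 4-fold.

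**Figure D1:**
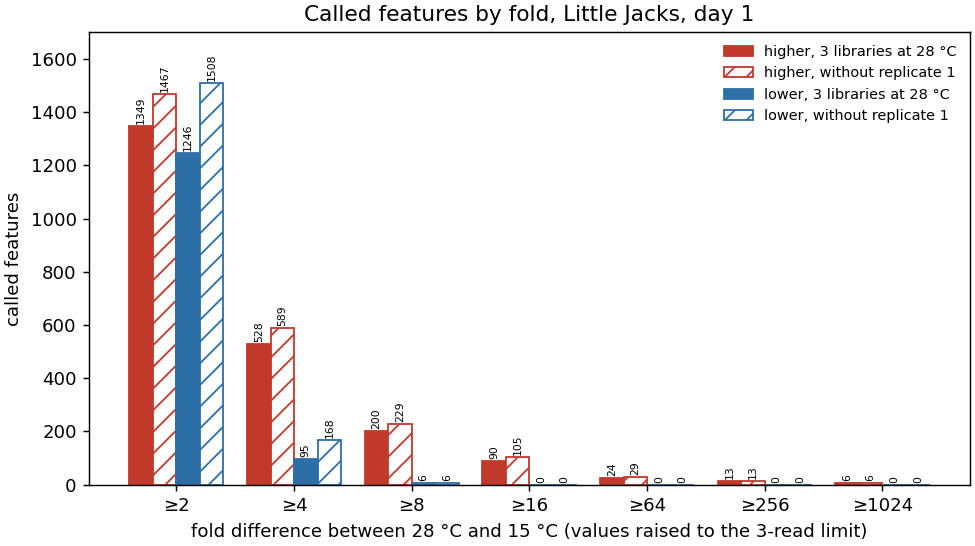
Number of called features (y axis) at or beyond each fold difference between 28 °C and 15 °C (x axis), higher in red and lower in blue, with all 3 libraries at 28 °C (filled bars) and without replicate 1 (hatched bars). At 2-fold the filled bars stand at 1349 and 1246, and at 16-fold 90 higher and 0 lower; the limit leaves 22.7% of features room for a 16-fold fall.

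Features that were nearly absent at one temperature were few. In 8 features all 15 °C libraries held 3 reads or fewer; 5 of them were called higher (7.12% of all features were), and the highest mean among these 5 at 28 °C was 114 units. In 120 features all 28 °C libraries held 3 reads or fewer, and 82 of these were called lower (8.33% of all features were). When replicate 1 at 28 °C was left out, the 8 features again held 5 higher calls, and 276 features, 174 of them called lower, held 3 reads or fewer in both remaining 28 °C libraries. Being low at one temperature chose these features, so the direction of their calls follows from the choice. The steepest rises that can be read as a fold thus include features with a low but measured level at 15 °C, such as those named below.

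The calls were spread over all levels of abundance. Among the 114 features with a mean above 1000 units over the 24 Little Jacks libraries, 17 were higher (14.9%) and 5 lower (4.39%). Among the 1276 features from 100 to 1000 units, 147 were higher and 95 lower. Among the 7361 features from 1 to 5 units, 262 were higher (3.56%) and 376 lower (5.11%). Higher calls outnumbered lower ones in the 2 most abundant classes. The 5546 features from 20 to 100 units held nearly equal numbers, 586 higher and 584 lower. Lower calls outnumbered higher ones below 20 units, where 967 of 10046 features from 5 to 20 units were lower and 721 higher. With replicate 1 at 28 °C left out, the class above 1000 units held 22 higher and 4 lower calls. That from 20 to 100 units held 684 and 451, and that from 1 to 5 units 228 and 593. The mean over the 24 libraries includes the 28 °C libraries, so a feature that rose strongly is placed higher for that reason.

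**Figure D2:**
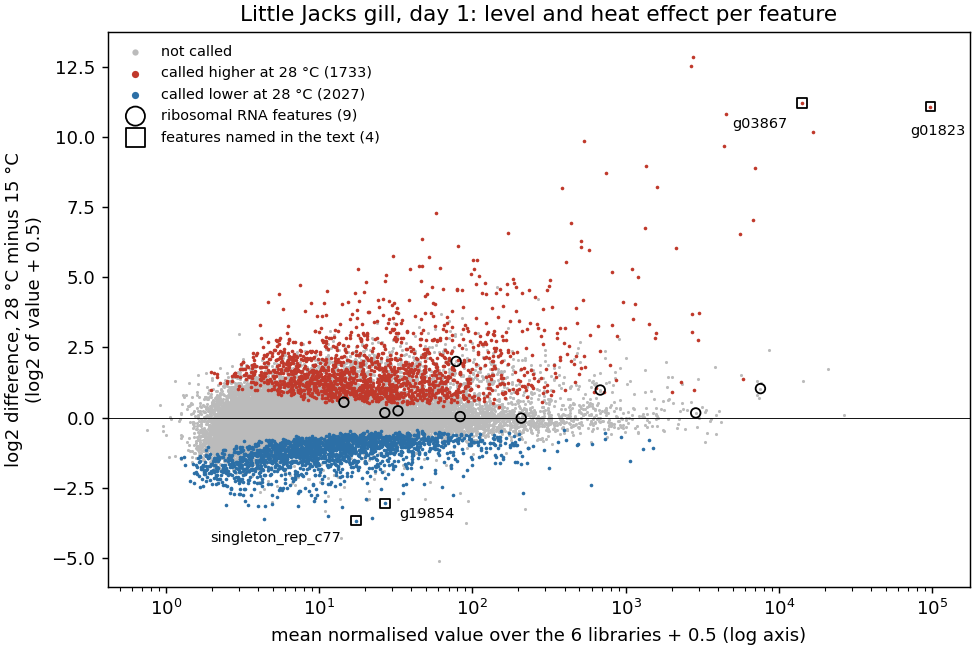
Heat effect on day 1 (log2 difference of value + 0.5, y axis) against the mean value over the 6 libraries plus 0.5 (log axis) for all 24343 features, with 1733 called higher in red and 2027 called lower in blue. The 4 features named in the text are boxed, the 9 ribosomal RNA features are circled and lie among the features that were not called, and the 2 points above g03867 held 3 reads or fewer in at least 1 control library.

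The features named here are the 2 with the largest rise and the 2 with the largest fall under 4 conditions. They were called, their groups did not overlap, they were also called without replicate 1 at 28 °C, and they held more than 3 reads in each of the 6 libraries. In all, 1466 higher and 1173 lower features met these conditions. The data of these 4 chose them, so their day 1 effects are a description. The identifiers are those of the authors' tables.

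Feature g03867 had 18624, 35017 and 31101 units in the 28 °C libraries and 13.1, 11.8 and 8.62 units in the 15 °C libraries. All 28 °C libraries lay far above all controls, and replicate 1 was the lowest of the 3. Its log2 difference was 11.21 (SE 0.32), and 11.48 without replicate 1. In Keithly on day 1 the difference was 11.31 (SE 0.30) and in the F1 cross 11.22 (SE 0.42), from 15 °C means of 13.5 ± 5.55 and 12.6 ± 4.402 units (SD, n = 3 each).

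Feature g01823 was the most abundant feature of each 28 °C library, with 127240, 245690 and 211640 units, against 130.55, 76.9 and 63.5 units at 15 °C. It took 7.96%, 16.9% and 14.1% of the recovered reads at 28 °C and 0.0158%, 0.00939% and 0.00769% at 15 °C. Replicate 1 was again the lowest of the 28 °C libraries, and the groups did not overlap. The log2 difference was 11.08 (SE 0.34), and 11.36 without replicate 1.

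Feature singleton_rep_c77 had 1.92, 1.91 and 1.81 units at 28 °C, which were 4, 10 and 9 reads, and 38.8, 16.7 and 40.1 units at 15 °C. The 28 °C libraries lay close together, and replicate 2 at 15 °C was well below the other controls. At so few reads counting error is wider than this closeness, so no small spread between pools is read from it. The log2 difference was -3.67 (SE 0.42), and -3.68 without replicate 1 at 28 °C.

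Feature g19854 had 1.92, 7.06 and 9.46 units at 28 °C, the first of them 4 reads, and 44.9, 48.4 and 46.4 units at 15 °C. The controls were tight and the 28 °C libraries spread, with replicate 1 lowest. The log2 difference was -3.05 (SE 0.37) and moved to -2.44 without replicate 1.

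The heat effect on these features was tested again on later days, which have libraries of their own. For g03867 the 28 °C means were 28247 ± 8561 units on day 1, 3498 ± 1341 on day 3, 2614 ± 635 on day 7 and 1453 ± 514 on day 28 (SD, n = 3), and the 15 °C means stayed between 9.28 and 16.3 units. On days 3, 7 and 28 its log2 differences were 8.43, 7.82 and 6.42, with limma adjusted p of 7.03e-13, 3.02e-12 and 1.07e-10. The feature was thus still raised after 28 days. Its day 28 effect was smaller than the day 1 effect by -4.79 on the log2 scale (adjusted p = 4.45e-06, limma). The day 1 effect chose the feature and enters this change, so no support is drawn from the change.

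The effect on g01823 was 9.73, 9.38 and 8.43 on days 3, 7 and 28, each called (limma adjusted p = 3.25e-13, 6.66e-13 and 5.28e-12). Its change from day 1 to day 28 of -2.65 passed (adjusted p = 0.00237, limma). The changes from day 1 to day 3, of -1.35 (adjusted p = 0.162), and to day 7, of -1.70 (adjusted p = 0.0614), did not pass limma's threshold. Without replicate 1 at 28 °C on day 1 the day 7 change was -1.99 and passed (adjusted p = 0.0203).

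The fall of singleton_rep_c77 was not called on any later day, with log2 differences of -0.52, -1.27 and -0.86 on days 3, 7 and 28 (limma adjusted p = 0.531, 0.0999 and 0.298). The changes in effect from day 1, of 3.14, 2.40 and 2.81, all passed (limma adjusted p = 0.00493, 0.0306 and 0.00724). Its 28 °C mean was 1.88 ± 0.0581 units on day 1 and 24.7 ± 12.5 on day 3, and the 15 °C mean was 31.9 ± 13.1 and 34.0 ± 10.1 (SD, n = 3), so the libraries of day 3 overlapped between temperatures where those of day 1 did not. On day 7 all 28 °C libraries, at 11.8, 18.1 and 6.30 units, lay below all controls, at 23.5, 30.3 and 29.0. On day 28 the groups overlapped, with 16.6, 5.30 and 7.07 units against 14.8, 15.2 and 18.1.

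The fall of g19854 was -1.39 on day 3 and -1.40 on day 7, both called (limma adjusted p = 0.0229 and 0.0343), and -1.12 on day 28, not called (limma adjusted p = 0.0985). With replicate 1 at 28 °C on day 1 left out of the shared estimate of spread, the day 28 fall was called as well (limma adjusted p = 0.0119). Only its change from day 1 to day 28, of 1.94, passed among the 3 changes (limma adjusted p = 0.0338; 0.0960 for day 3 and 0.0905 for day 7). These changes share the day 1 libraries by which the feature was chosen, as do those of the other named features.

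**Figure D3:**
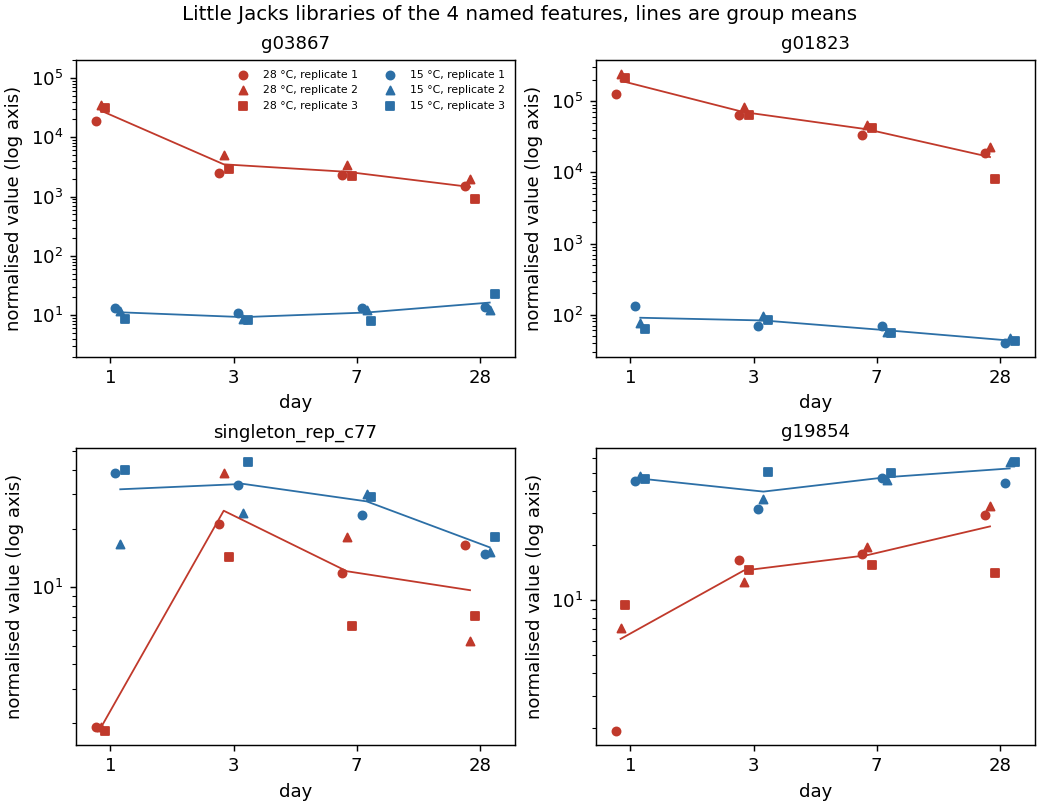
Normalised value (log axis) of the 4 named features in each Little Jacks library by day, at 28 °C in red and 15 °C in blue, with 1 symbol per library and lines through the group means. The 2 raised features stay above their controls on all 4 days. Feature singleton_rep_c77 lies below its controls on days 1 and 7 and overlaps them on days 3 and 28.

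Names in the files were given to 9 features alone, all of ribosomal RNA. Ribosomal RNA is the structural RNA of ribosomes, 12S and 16S in mitochondria and 18S and 28S in the cytosol, and it was depleted before library preparation per the labels. On day 1, 0 of the 9 were called by limma, where 15.4% of all features were; 0 were at an unadjusted p under 0.05, and edgeR called 0. Feature rRNA_28S_1 had 3005, 12909 and 16842 units at 28 °C against 3965, 4081 and 4697 at 15 °C. Replicate 1 at 28 °C was below all controls, and the other 2 were above all of them. The log2 difference was 1.03 (SE 0.63, limma adjusted p = 0.297), and 1.799 without replicate 1 (adjusted p = 0.0447). With replicate 1 kept and the libraries scaled to equal totals it was 0.15 (limma adjusted p = 0.847).

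Feature rRNA_28S_2 behaved alike in its order, with 172, 452 and 2569 units at 28 °C and 300, 230 and 375 at 15 °C. Its log2 difference was 0.98 (limma adjusted p = 0.374), and 1.86 without replicate 1 (adjusted p = 0.0582). With replicate 1 kept and the libraries scaled to equal totals it was 0.10 (limma adjusted p = 0.910). Feature rRNA_18S_1 had the opposite order among the 28 °C libraries, 285, 106 and 15.1 units, against 14.7, 32.0 and 14.5 at 15 °C. Its log2 difference of 2.00 had an SE of 1.33 (limma adjusted p = 0.345). It was 1.07 without replicate 1 and 3.16 without replicate 3 at 28 °C (limma adjusted p = 0.693 and 0.155). The 6 mitochondrial features had log2 differences from -0.02 to 0.55 (limma adjusted p from 0.566 to 0.980), and from 0.45 to 1.11 without replicate 1 (limma adjusted p from 0.214 to 0.485). They took 0.133%, 0.228% and 0.338% of the reads at 28 °C and 0.397%, 0.324% and 0.355% at 15 °C. No direction is given for the mitochondrial features: all 6 had negative differences, from -0.90 to -0.29, when the libraries were scaled to equal totals.

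The libraries at 28 °C concentrated their reads in fewer features. In the 28 °C libraries 140, 111 and 115 features were enough to hold 0.5 of the recovered reads, and in the 15 °C libraries 618, 633 and 613 did. The 10 most abundant features took 27.2%, 30.0% and 27.6% at 28 °C and 9.56%, 8.03% and 7.78% at 15 °C. The groups did not overlap in either measure. The features behind these shares differed in part: replicate 1 at 28 °C had 4 of its 10 most abundant features in common with replicate 2 and 4 with replicate 3, which shared 9, and the controls shared 7 or 8.

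The 100 most abundant features took 46.7%, 49.1% and 48.7% against 27.4%, 26.4% and 26.9%, again with no overlap. Features with more than 3 reads numbered 22732, 23315 and 23200 at 28 °C and 24265, 24262 and 24264 at 15 °C. For each of these shares and counts the exact permutation test of 3 against 3 libraries, two-sided, gave p = 0.1, the smallest it allows, and 0.133 after adjustment over 8 tests, so the design cannot pass 0.05. The number of features seen with more than 3 reads depends on depth and on how reads are shared out, and the part of either in this difference was not tested. Depth was 3.34 M reads in replicate 1 at 28 °C, 7.48 and 7.63 M in the other 28 °C libraries and 6.03 to 6.79 M in the controls.

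The 90 features at least 16-fold higher took 15.4%, 30.4% and 27.3% of the reads of the 28 °C libraries on day 1 and 0.176%, 0.168% and 0.160% of the controls. These values chose the 90. Feature g01823, among the 90, alone took 7.96%, 16.9% and 14.1% of the reads of these 28 °C libraries, and shares without it are not given here. In libraries that did not choose them, the 90 took 8.89% to 12.1% of reads at 28 °C on day 3, 3.95% to 7.99% on day 7 and 1.07% to 4.41% on day 28, against 0.144% to 0.179% in the 9 controls of those days. The lowest 28 °C library of day 7 and that of day 28 were among those that stood apart, as described below. Their group mates held 5.63% and 7.99% on day 7 and 3.47% and 4.41% on day 28. Each later 28 °C library lay above each control of those days. The day 1 values chose the 90, so the later shares are not set against those of day 1. The 105 features chosen without replicate 1 took 15.7% of its reads, 1.11% to 12.3% in the later 28 °C libraries and 0.216% to 0.246% in the controls of those days.

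All 1733 called higher features together took 23.5%, 43.2% and 39.7% of the reads at 28 °C and 5.86% to 6.02% at 15 °C, and the 2027 lower ones 2.18%, 2.58% and 2.32% against 8.86% to 8.92%. Features that were not called took 74.4% of replicate 1 at 28 °C, 54.2% and 58.0% of the others, and 85.1% to 85.2% of the controls.

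**Figure D4:**
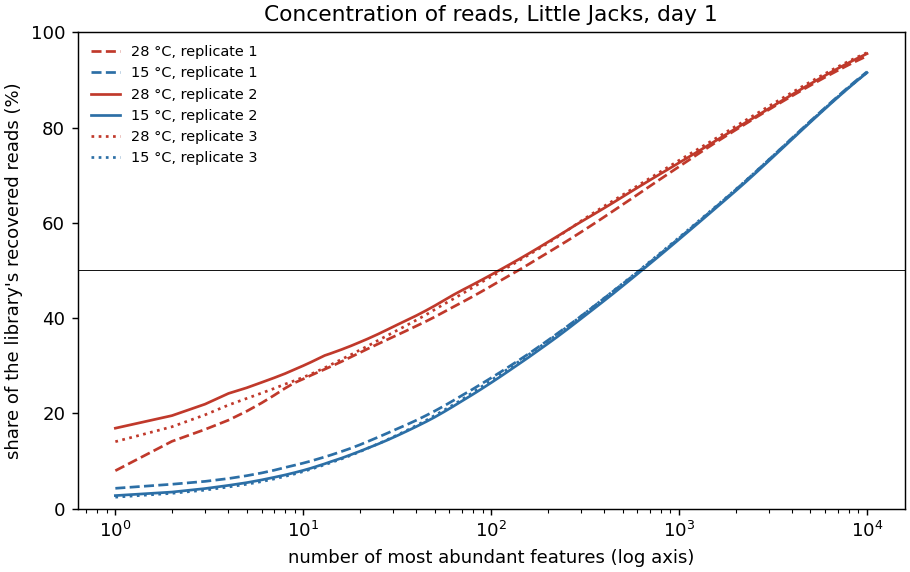
Share of each library's recovered reads (y axis, percent) taken by its most abundant features (x axis, number of features on a log axis) in the 3 libraries at 28 °C (red) and the 3 at 15 °C (blue) on day 1. The horizontal line marks 0.5 of the reads, which the 28 °C libraries reach with 111 to 140 features and the 15 °C libraries with 613 to 633.

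The pools at 28 °C differed more among themselves than the controls. Over the 16982 features with a mean of at least 5 units, the median SD of log2 values was 0.41 at 28 °C and 0.19 at 15 °C, and the SD was larger at 28 °C in 13820 of them (81.4%). Read on pairs of libraries, so that n is 2 throughout, the median SD was 0.37 in both pairs with replicate 1, 0.28 between replicates 2 and 3 at 28 °C and 0.15 to 0.16 in the 3 pairs of controls. As a description across features, Pearson's r of log2 values was 0.751 and 0.758 between replicate 1 and the others, 0.909 between these, and 0.963 to 0.969 among the controls.

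Over the 8 Little Jacks groups the median SD ran from 0.19 in the day 1 controls to 0.41 at 28 °C on day 1. It was 0.40 at 28 °C on day 28 and 0.32 at 28 °C on day 7. On day 3 it was 0.22 at 28 °C and 0.24 at 15 °C, so the wider spread was not seen at 28 °C on that day. On pairs of libraries the day 28 values at 28 °C were 0.16, 0.42 and 0.45 and those of day 7 were 0.15, 0.32 and 0.33. Replicate 1 at 28 °C on day 1, 1 library at 28 °C on day 7 and 1 at 28 °C on day 28 were the Little Jacks members of 7 libraries that lay beyond the largest gap in the first component of within-group deviations over all 72.

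Replicate 1 was at least 2-fold above both group mates in 1826 of the 16982 features and at least 2-fold below both in 530. For replicates 2 and 3 the features above numbered 241 and 454 and those below 676 and 593, and in the controls no library exceeded 84 above or 104 below. The 1826 features, which were chosen for being high in replicate 1, took 37.7% of its reads, 3.84% and 3.88% of the others at 28 °C and 6.10% to 6.29% of the controls. Of them, 10 were called higher and 59 lower, where 7.12% and 8.33% of all features were, and without replicate 1, 3 and 138, where 7.74% and 8.75% were. They were chosen for a wide spread within the 28 °C group, with replicates 2 and 3 below replicate 1. That choice bears on the calls with and without replicate 1, and its part in these counts was not tested. What these transcripts are is not known here, and their part in the other results was not tested.

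Replicate 1 was also read on features chosen without it. They were called from replicates 2 and 3 and the day 1 controls, and its values were then set against the 9 controls of days 3, 7 and 28, whose levels are not part of the day 1 difference, although all libraries in the fit share the estimate of spread. In the 1883 features called higher, replicate 1 had a median of 0.94 above those controls on the log2 scale and lay above them in 1655 (87.9%). In the 2129 called lower, its median was -0.66 and it lay above the controls in 399 (18.7%). Over all features the median was 0.01 and 50.4% lay above. The medians of replicates 2 and 3, which chose the lists, were 1.41 and 1.35 for the higher and -1.17 and -1.23 for the lower features.

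The features called on day 1 were also read on later days in Little Jacks. Their day 1 effect chose them, so their later medians are a description and are not set against day 1. Of the 1733 features called higher on day 1, 545 (31.4%) were called higher on day 3, 348 (20.1%) on day 7 and 248 (14.3%) on day 28, where 4.12%, 2.35% and 1.87% of all features were called higher. The median log2 difference of the 1733 features was 0.64, 0.51 and 0.38 on those days, and that of all features -0.01, 0.06 and 0.03.

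Of the 2027 features called lower on day 1, 365 (18.0%), 164 (8.09%) and 140 (6.91%) were called lower on days 3, 7 and 28, where 3.55%, 1.49% and 1.93% of all features were. Their medians were -0.40, -0.28 and -0.25. The effects of the different days share no library. Chosen without replicate 1 at 28 °C, 564 (30.0%), 341 (18.1%) and 245 (13.0%) of 1883 features were called higher on days 3, 7 and 28, and 345 (16.2%), 141 (6.62%) and 115 (5.40%) of 2129 were called lower.

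The features with the largest changes on day 1 were read in the same way. Of the 528 at least 4-fold higher on day 1, 272 (51.5%) were called higher on day 3, 213 (40.3%) on day 7 and 157 (29.7%) on day 28. Of the 95 at least 4-fold lower, 40 (42.1%), 25 (26.3%) and 17 (17.9%) were called lower on those days. Over all features, 4.12%, 2.35% and 1.87% were called higher and 3.55%, 1.49% and 1.93% lower on these days. Chosen without replicate 1 at 28 °C, 290 (49.2%), 222 (37.7%) and 162 (27.5%) of 589 were called higher, and 56 (33.3%), 31 (18.5%) and 21 (12.5%) of 168 lower. Larger effects pass a threshold more easily at the same precision, so these shares do not compare how long features stayed changed.

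On all 4 days, 174 features were called higher and 66 lower. Of the features called on day 1, 1086 of the 1733 higher and 1584 of the 2027 lower were called in that direction on no later day, and 28 and 29 were called in the opposite direction on a later day. A call on day 1 alone is no test of a change. The difference between the effects of day 28 and day 1 passed in 326 of the 1086 and in 316 of the 1584, where 4.76% of all features passed. The effects of both days took part in choosing these sets, so no support is drawn from such counts, with or without replicate 1. Leaving out replicate 1 at 28 °C on day 1, 175 features were called higher and 54 lower on all 4 days. On no later day were 1229 of the 1883 higher and 1720 of the 2129 lower features called, and the difference passed in 474 and 499 of these. Over all 24343 features the difference passed in 1647 in that fit.

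Tested directly over all features, the heat effect differed between day 3 and day 1 in 644 features (2.65%), 265 more positive and 379 more negative on day 3. Between day 7 and day 1 it differed in 754 (3.1%), 301 and 453. The balance turned under scaling to equal totals, with 372 more positive and 46 more negative on day 3 and 445 and 100 on day 7, and without replicate 2 at 28 °C it was 313 and 290 on day 3. Without replicate 1 at 28 °C the day 7 count was 1138, and without replicate 1 or 2 at 15 °C it was 469 or 446; the day 3 count was 367, 414 or 385 without replicate 1, 2 or 3 at 15 °C. Between day 28 and day 1 it differed in 4.76% of all features. Among the 1733 higher features this difference passed with a smaller effect on day 28 in 578 and with a larger one in 1. Among the 2027 lower ones it passed with a smaller effect in 369 and with a larger one in 4. The features were chosen for their day 1 effect, which takes part in these differences, so no support is drawn from the balance.

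The same features were then read in the other strains on day 1, which share no library with Little Jacks. Of the 1711 higher features present in the Keithly table, 1131 (66.1%) were called higher in Keithly, where 7.25% of all features were, with a median log2 difference of 1.43. In the F1 cross 1043 of 1717 (60.7%) were called higher against 6.7% of all features, with a median of 1.37. The median over all features of the Little Jacks table was -0.03 in Keithly and -0.04 in the F1 cross.

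Of the lower features, 700 of 1998 (35.0%) were called lower in Keithly and 616 of 1985 (31.0%) in the F1 cross, where 5.37% and 5.78% of all features were. Their medians were -0.71 and -0.69. Of the 518 at least 4-fold higher features in the Keithly table, 450 (86.9%) were called higher there, and of 521 in the F1 table, 436 (83.7%). Among the at least 4-fold lower features, 64 of 95 (67.4%) were called lower in Keithly and 56 of 94 (59.6%) in the F1 cross. Few went the other way, with 3 of the 1711 higher features called lower in Keithly and 12 of the 1717 in the F1 cross. Chosen without replicate 1 at 28 °C, 1214 of 1866 higher features (65.1%) were called higher in Keithly and 1101 of 1869 (58.9%) in the F1 cross, and 656 of 2089 lower features (31.4%) and 587 of 2071 (28.3%) were called lower.

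**Figure D5:**
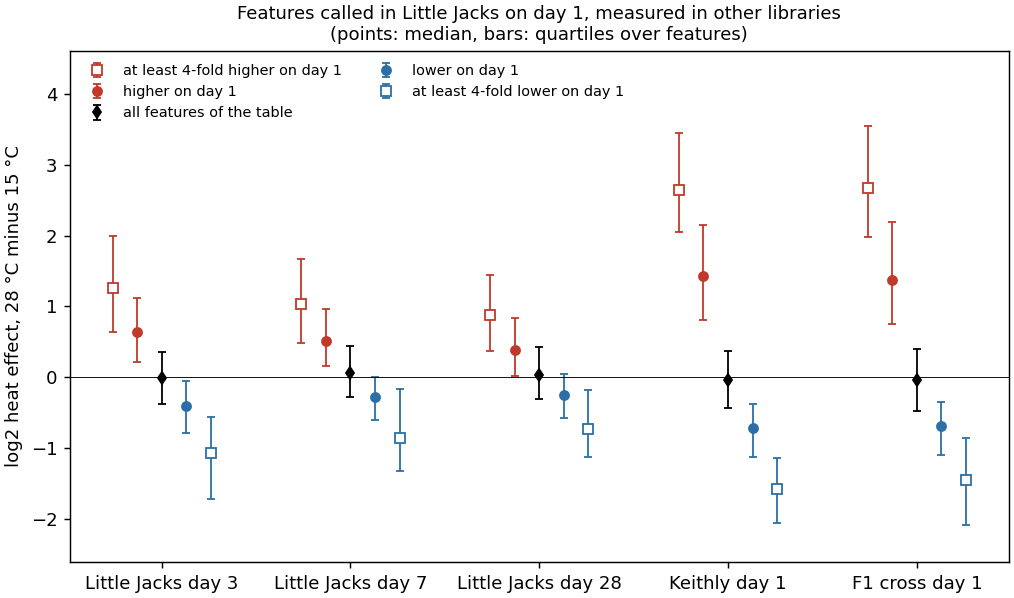
Heat effect (log2 difference between 28 °C and 15 °C, y axis) of features chosen in Little Jacks on day 1, measured on later days and in the other strains on day 1 (x axis). Points are medians and bars quartiles over features. The higher features have medians of 0.64, 0.51 and 0.38 on days 3, 7 and 28, and of 1.43 in Keithly and 1.37 in the F1 cross, with all features near 0.

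Over features in all 3 tables, 928 were called higher on day 1 in Little Jacks, Keithly and the F1 cross alike, with median log2 differences of 1.81, 2.02 and 2.04, and 430 were called lower in all 3, with medians of -1.25, -1.27 and -1.33. In Little Jacks but in neither of the others, 456 were called higher and 1087 lower. The 456 had medians of 0.57 in Keithly and 0.52 in the F1 cross, and the 1087 had medians of -0.44 and -0.43. The shared sets without replicate 1 at 28 °C held 982 and 405 features, and those called in Little Jacks alone 515 and 1222.

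A call in 1 strain alone is no test of a difference, and a difference that misses the threshold does not show that the strains responded alike. Among the 456 the difference from Keithly passed in 0 and that from the F1 cross in 8, and among the 1087 it passed in 1 and 10 (limma adjusted p over all shared features). Over all 23234 shared features it passed in 2 (0.00861%) from Keithly and in 98 (0.422%) from the F1 cross. Conversely, 209 features were called higher in Keithly and the F1 cross but not in Little Jacks, where 203 of them had a positive difference and the median was 0.55. Of 199 called lower in both others, 19 had a positive difference in Little Jacks, the median was -0.57, and the difference from the F1 cross passed in 16. In the fits without replicate 1 at 28 °C, the difference from the F1 cross passed in 16 of the 515 and 15 of the 1222, that from Keithly in 0 and 2, and the sets called in both others alone held 155 and 222 features. Over all shared features, 133 differed from the F1 cross and 5 from Keithly in those fits. The day 1 effects that chose these sets enter each strain difference, so no support is drawn from the counts.

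Against Keithly, the heat effect of day 1 differed in 2 of 23234 shared features (0.00861%), 1 in each direction, by limma at an adjusted p under 0.05, with 1295 at an unadjusted p under 0.05. Both fall outside the rule for named features and were looked at after their values were seen. In the first the log2 difference was 0.87 in Little Jacks against -2.68 in Keithly, and the strains differed by 3.55 (SE 0.63). In the second it was -1.53 against 0.34, which differ by -1.87 (SE 0.34), and the limma adjusted p was 0.0153 for both. Without replicate 1 at 28 °C, 3 and 2 features passed; without replicate 2 at 28 °C, 3 and 5 did; and without replicate 2 or 3 at 15 °C, 0 did, with 1089 and 1141 at an unadjusted p under 0.05.

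For the heated F1 group of day 1 the labels point to the Little Jacks table, but the F1 table has columns with its name, and these names were followed. Against the F1 cross, 98 features (0.422%) differed, 75 with a more positive effect in Little Jacks and 23 with a less positive one, and 1911 were at an unadjusted p under 0.05. In the 75 the median log2 difference was 0.75 in Little Jacks, -0.57 in Keithly and -2.03 in the F1 cross, and the signs of Little Jacks and the F1 cross were opposite in 63. In the 23 the medians were -0.98, 0.05 and 0.74, with opposite signs in 18. Keithly lay between the others in 72 of the 75 and in all 23. These medians, signs and positions describe features picked for the difference between Little Jacks and the F1 cross. Values picked to lie far apart leave room for Keithly between them, so no order of the strains is read from these counts.

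The choice of Little Jacks libraries moved this count. Without replicate 1 at 28 °C the counts were 107 and 26, with 63 of the 75 and 13 of the 23 called again. Without replicate 1 or 3 at 15 °C, 49 or 54 features passed in all, and under scaling to equal totals 38 did. Feature singleton_rep_c77 was among the 23: in the F1 cross it had 8.72, 11.6 and 8.13 units at 28 °C and 6.91, 14.9 and 19.4 at 15 °C, groups that overlapped. The log2 difference there was -0.41 (SE 0.49, limma adjusted p = 0.706), and the difference between strains was -3.26 (SE 0.64, limma adjusted p = 0.00483). In Keithly its log2 difference was -1.71 (limma adjusted p = 0.00400), and the difference from Little Jacks of -1.96 did not pass (limma adjusted p = 0.553). The fall in Little Jacks by which this feature was chosen enters both strain differences, so no support is drawn from them.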

How the data were processed

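Gill RNA of pooled samples went through ribosomal RNA depletion and ScriptSeq library preparation before sequencing, per the labels. CASAVA 1.8, Bowtie and edgeR were used by the authors, per the submitters' processing notes; the reference transcriptome and the filters are not given in these sources. For each strain the authors deposited 1 table of a normalised signal. The labels call it CPM, but its columns do not sum to the total that CPM would give. The authors' library table gives reads and the percent matched. Columns were tied to groups by their names; S numbers match no sample label and only name replicates. For the F1 cross at 28 °C on day 1 the sample descriptions point to another table than the column names, which were followed.

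Values were whole multiples of a column's smallest step within 0.01 for 100% of values in each of the 6 libraries, which gave the recovered reads. Without values in Little Jacks, 5408 features were dropped, and the filter (1 unit in at least 3 libraries) removed 0 of 24343.

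Tests used R 4.3.3 and limma 3.58.1 (trended prior, log2(value + 0.5), 1 mean per group, all 24 libraries of a strain, Benjamini-Hochberg adjusted p under 0.05). Folds on this scale understate changes of low features. Strain differences were differences of within-strain differences over 72 libraries and 23234 shared features, since the authors scaled the tables separately. Shares were compared by the exact permutation test. The steps were tested on simulated data. edgeR 4.0.16 on recovered reads, other pseudocounts, filters, scalings and left-out libraries were alternatives.

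The named features were the 2 with the largest rise and the 2 with the largest fall among called, non-overlapping features also called without replicate 1 at 28 °C and above 3 reads in each of the 6 libraries, with the 9 ribosomal RNA features. The comparison, lists and rules were chosen with earlier results of these data known. Counts by fold under other settings, the lists chosen without replicate 1 at 28 °C, the counts among features with room to fall and the spread of library pairs were added after seeing the data.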

Additional observations from a re-analysis of the deposited data

Results flagged for a closer look

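The results below met a test of a difference between the heat effects of separate groups. Between strains on day 1, the effect differed from that in Keithly in 2 features and from that in the F1 cross in 98. Between days in Little Jacks, it differed from day 1 in 644 features on day 3, 754 on day 7 and 1159 on day 28.

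The log2 effect on g03867 was smaller than on day 1 by -2.78 on day 3, -3.39 on day 7 and -4.79 on day 28, and that on g01823 by -2.65 on day 28. The effect on singleton_rep_c77 was less negative by 3.14 on day 3, 2.40 on day 7 and 2.81 on day 28, and that on g19854 by 1.94 on day 28. The 4 features were chosen for their day 1 effect, which enters each of these differences.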

How the results depend on the processing

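The 4 named features kept their direction and their call in each of 16 settings. Leaving out replicate 1 at 28 °C, 1 of these settings, was also a condition for naming them. Another, the fit with no filter, repeated the main fit, since the filter removed 0 features. Feature g03867 ranged from 10.34 to 11.48, g01823 from 10.20 to 11.38, singleton_rep_c77 from -4.40 to -2.35 and g19854 from -3.85 to -2.28 (log2). Among ribosomal RNA features, rRNA_28S_1 was called without replicate 1 at 28 °C. It and rRNA_28S_2 were called without the 3 Little Jacks libraries among the 7 that stand apart. Other pseudocounts, filters, median-of-ratios scaling and edgeR (1902 higher, 1856 lower) moved the day 1 counts by less than 1.5 times.

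Scaling to equal totals called 11033 features on day 1 (594 higher, 10439 lower), and the fit of 6 libraries 1707 (1095, 612). The fit without the 3 Little Jacks libraries that stand apart called 6006 (2756, 3250). For the fit of 6 libraries and the fit without the 3 libraries, the cause of the change in counts was not tested. The 6-library fit has fewer samples and also takes its estimate of spread from the day 1 libraries alone. Under equal totals 418 features differed between days 3 and 1, 594 between days 28 and 1, 0 between Little Jacks and Keithly (limma; 900 at an unadjusted p under 0.05) and 38 between Little Jacks and the F1 cross; the 16-fold counts were 50 higher and 10 lower, and the 4-fold ones 241 and 1327. Without the 3 libraries, 1830, 2094 and 2499 features differed between day 1 and days 3, 7 and 28, and 178 were at least 4-fold lower on day 1. In the strain comparisons without the libraries that stand apart, 16 differed from Keithly and 215 from the F1 cross.

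Leaving out 1 Little Jacks library of day 1 at a time gave 2570 to 4012 called features (1312 to 1883 higher, 1246 to 2129 lower). At 16-fold, 86 to 105 were higher and 0 to 4 lower, and at 4-fold 497 to 589 and 94 to 168. Differences from day 1 ranged from 367 to 805 features on day 3, 446 to 1138 on day 7 and 799 to 1647 on day 28, and strain differences from 0 to 8 (Keithly) and 49 to 133 (F1 cross).

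No paired analysis was possible because the replicate numbers of the columns match no sample label. Counts under 4 reads limit folds, and the shallowest library sets that limit.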
